A study of Mus musculus with 15 samples.

Results

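The angiomotin, YAP, TAZ and TEAD genes were followed through smooth muscle differentiation of mouse induced pluripotent stem cells (iPSC). The 10 genes were the angiomotins Amot, Amotl1 and Amotl2, the coactivators Yap1 and Wwtr1 (TAZ), the transcription factors Tead1, Tead2, Tead3 and Tead4, and Ankrd1, a gene that YAP and TEAD are known to activate. They were found by matching the Entrez Gene ID of each probe set to the gene symbol, and all 10 were present among 25206 probe sets, with 1 probe set per gene. The study profiled 15 RNA samples on Affymetrix Mouse Gene 2.0 ST arrays, 3 in each of 5 groups. The cultured samples came from an iPSC reporter line named Acta2hrGFP, in which green fluorescence reports on the smooth muscle actin gene Acta2. The groups were undifferentiated iPSC at day 0 (D0), cells sorted for the mesoderm receptor Kdr (also called Flk1) at day 5 (D5), and GFP- and GFP+ sorts of candidate smooth muscle cells at day 13 (D13). The last group was GFP+ smooth muscle cells of primary mouse aorta (aorta), which carry the same reporter and served as a positive control. The labels name 1 reporter line for the cultured groups without saying how many clones it comprises, and the aortic cells are primary cells.

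The Hippo pathway is a kinase cascade in which MST kinases activate the LATS kinases, and LATS phosphorylates YAP and TAZ so that they are held in the cytoplasm or degraded. YAP and TAZ do not bind DNA themselves; in the nucleus they act through the TEAD factors, and matricellular genes such as Ccn1 and Ccn2 are among the targets. Angiomotins are junction and actin-associated scaffolds that bind YAP and TAZ and can keep them out of the nucleus. In vascular smooth muscle the pathway is known for its response to mechanical load and matrix stiffness. Most of this control acts on protein phosphorylation and location, which an RNA array does not measure.

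TEAD factors bind the short element GGAATG, and 4 promoters that carry it are printed here, from genes described further on. RefSeq promoter windows (GRCm38.p6), running from 250 bases before to 50 bases after each gene start, were searched for GGAATG on either strand, which reads CATTCC on the opposite strand. The element was present in 14.7% of all 32851 windows and, counted by gene as below, in at least 1 window of 16.6% of genes. A window was given for 8 of the 10 genes, and 5 of those held a match (Amotl2, Yap1, Wwtr1, Tead3 and Ankrd1). The windows of Amot, Amotl1 and Tead2 held none. Among the 19 YAP, TAZ and TEAD target genes described further on, 12 had a window and 4 a match (Ccn1, Axl, Crim1 and Ptpn14). The lines give the 250 bases before the start, 5′ to 3′ on the gene's strand, with the matching letters in capitals; a match describes letters only and does not show binding. Ankrd1 lies at chr19:36119845-36120094 on the minus strand with matches beginning 210 and 123 bases before the start. Amotl2 lies at chr9:102717554-102717803 on the plus strand, Ccn1 at chr3:145649986-145650235 on the minus strand and Axl at chr7:25788734-25788983 on the minus strand, with matches beginning 65, 103 and 233 bases before their starts.
Ankrd1: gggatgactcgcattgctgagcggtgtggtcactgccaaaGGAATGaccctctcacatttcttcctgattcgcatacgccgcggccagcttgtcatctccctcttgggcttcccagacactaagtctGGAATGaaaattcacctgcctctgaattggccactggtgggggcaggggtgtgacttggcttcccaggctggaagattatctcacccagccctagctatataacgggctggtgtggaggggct
Amotl2: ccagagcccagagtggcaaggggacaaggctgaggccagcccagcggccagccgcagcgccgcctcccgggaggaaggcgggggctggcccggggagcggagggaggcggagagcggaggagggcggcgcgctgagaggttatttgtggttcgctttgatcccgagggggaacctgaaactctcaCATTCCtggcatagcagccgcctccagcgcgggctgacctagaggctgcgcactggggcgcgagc
Ccn1: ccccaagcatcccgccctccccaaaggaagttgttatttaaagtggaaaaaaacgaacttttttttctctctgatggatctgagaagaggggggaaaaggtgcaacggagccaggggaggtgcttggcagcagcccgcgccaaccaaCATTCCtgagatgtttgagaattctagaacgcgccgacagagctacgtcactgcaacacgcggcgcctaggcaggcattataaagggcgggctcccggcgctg
Axl: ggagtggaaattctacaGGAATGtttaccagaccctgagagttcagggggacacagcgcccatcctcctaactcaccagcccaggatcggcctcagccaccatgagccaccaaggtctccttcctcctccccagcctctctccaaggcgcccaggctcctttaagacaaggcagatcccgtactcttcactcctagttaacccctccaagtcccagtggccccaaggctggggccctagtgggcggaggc

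The values are deposited log2 intensities per probe set, so a difference of 1 is a doubling, and levels of different probe sets cannot be ranked against each other. Sample medians lay between 4.08 and 4.29, and samples of the same group correlated at 0.977 to 0.995 over all probe sets. No detection call was used, so a value near or below the sample median is not shown to exceed background. This touches Amot in D0 and aorta, Ankrd1 in D0 and D5, Tead2 in aorta, Tead3 in D0 and D5, and Tead4 at day 13 and in aorta. Markers given below at such levels include Cubn and Esrp1 in both day 13 sorts, Apob in D13 GFP+, and Myh7 and Myl7 in D5. Actn2, Elf5 and Vgll1 were at such levels in all groups, and the target genes Axl and Ccdc80 in D5. The sort genes followed the labels in part. Kdr averaged 9.64 in D5 against 3.24 in D0 (limma adjusted p = 2.38e-12). Acta2 averaged 11.32 in D13 GFP+ and 10.67 in D13 GFP-, a difference of 0.65 ± 0.229 (SE) that did not pass the test between the sorts (limma adjusted p = 0.151); with the replicate number as a block in the day 13 samples alone it did (0.0362). Myh11, a marker of mature smooth muscle, averaged 11.03 in aorta but 4.36 and 4.64 in the D13 GFP- and GFP+ groups.

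Across the 5 comparisons, the 10 genes moved in both directions, and 1 of them differed between the day 13 sorts. Tests were made with limma on all 15 samples, and a change was called at a Benjamini-Hochberg adjusted p under 0.05 over all probe sets. From D0 to D5, 6 of the 10 genes rose and 0 fell, where 28.8% of all probe sets were called (14.9% higher, 13.9% lower). From D5 to D13 GFP-, 5 rose and 3 fell (26% of all probe sets called, 12% higher and 13.9% lower), and from D5 to D13 GFP+, 5 rose and 4 fell (31.2% called, 14.3% higher and 16.9% lower). Between D13 GFP+ and D13 GFP-, 1 gene, Amot, was lower in GFP+ and 0 were higher, where 4.53% of all probe sets were called (2.02% higher, 2.52% lower). In aorta against D13 GFP+, 1 gene was higher and 8 were lower (37.2% called, 17.7% higher and 19.5% lower). The median log2 difference of the 10 genes was 0.79, 0.17, 0.28, -0.10 and -0.47 in these 5 comparisons, against -0.01, -0.03, -0.0042, 0.01 and 0.07 over all probe sets. Both D13 comparisons use the same 3 D5 samples. The 3 samples of one group lay wholly above or below those of the other for 8, 8, 10, 6 and 9 of the 10 genes, against 46%, 39.6%, 45.3%, 19.5% and 44.9% of all probe sets. The other 5 pairs of groups serve the order of the levels: 9 of the 10 genes differed between D13 GFP- and D0 (34% of all probe sets called), 10 between D13 GFP+ and D0 (37.5%), 6 between aorta and D0 (47.7%), 9 between aorta and D5 (46%) and 9 between aorta and D13 GFP- (41.9%). A rescaling by cyclic loess turned the split in aorta against D13 GFP+ to 2 higher and 5 lower, the split from D0 to D5 to 6 and 1, and that between the sorts to 1 and 1; median centring turned that from D5 to D13 GFP- to 3 and 3.

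**Figure D1:**
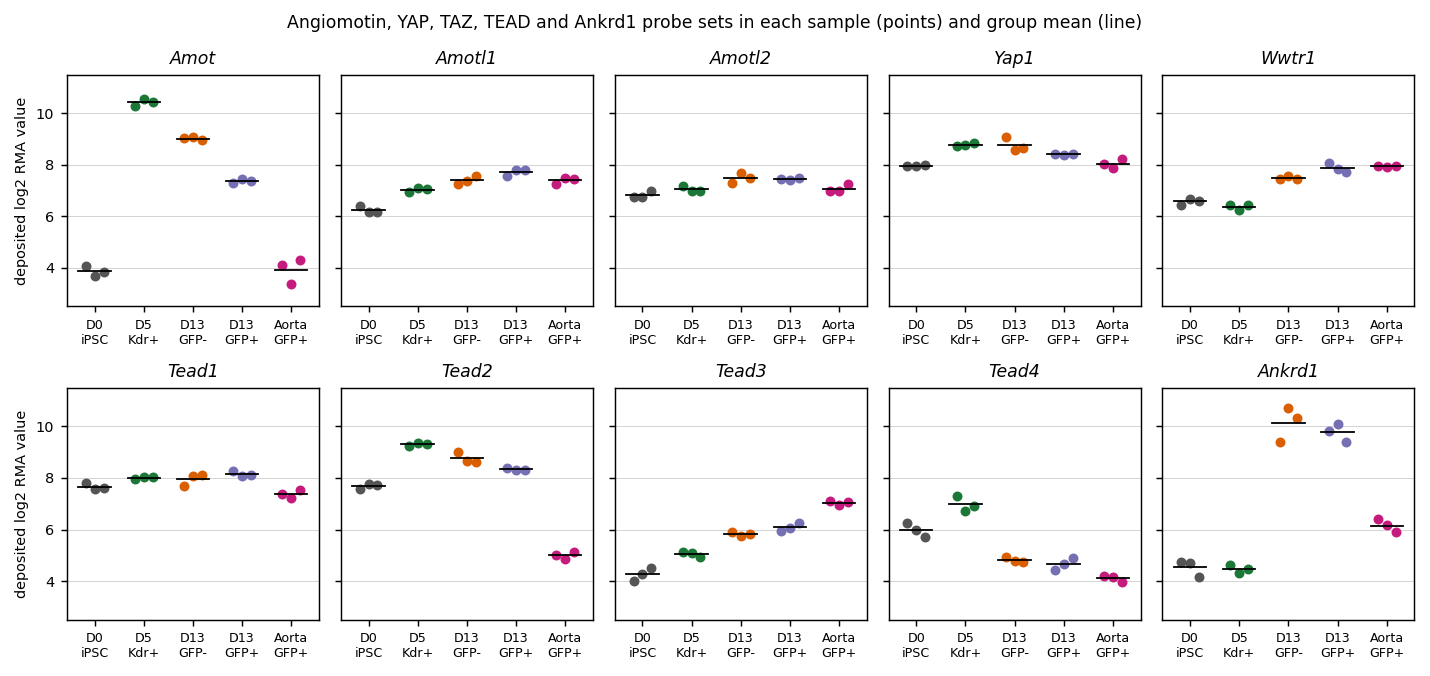
Deposited log2 value (vertical axis) of each of the 10 genes in each sample (points) of the 5 groups (horizontal axis), with the group mean as a line. Amot is near 4 in D0 and aorta and above 10 in all 3 D5 samples, Ankrd1 is above 9 only in the 6 day 13 samples, and Tead2 is lowest and Tead3 highest in the 3 aortic samples.

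Amot, the founding angiomotin, had the widest range of the 10 genes. Its values were 4.07, 3.69 and 3.84 in D0, and 10.29, 10.54 and 10.43 in D5. They were 9.03, 9.08 and 8.94 in D13 GFP-, 7.30, 7.44 and 7.38 in D13 GFP+, and 4.10, 3.38 and 4.29 in aorta. Amot was thus low in iPSC, at its highest in mesoderm, and intermediate at day 13, and every GFP+ sample lay below every GFP- sample, while the aortic and D0 samples overlapped. The rise from D0 to D5 was 6.55 ± 0.185 (SE), 93.7-fold (limma adjusted p = 1.18e-12). From D5, Amot fell by 1.40 on the log2 scale in GFP- (limma adjusted p = 3.01e-05) and by 3.04 in GFP+ (limma adjusted p = 5.49e-09). Between the sorts, GFP+ was 3.13-fold lower, a log2 difference of -1.65 ± 0.185 (limma adjusted p = 8.44e-05). Aorta was lower again than D13 GFP+, by 10.9-fold (limma adjusted p = 7.35e-10), and its difference from D0, 0.06, did not pass the test (limma adjusted p = 0.83). The D0 and aortic levels may be background, so the folds against them are uncertain. All neighbouring groups in the order D5, D13 GFP-, D13 GFP+, aorta differed, and only aorta and D0 did not. The replicate numbers of the 2 day 13 sorts pair the samples; with that block in the 6 day 13 samples alone, 2130 probe sets were called in place of 1142, and Amot remained called with the same difference (limma adjusted p = 0.000356). It was called under all 27 alternatives of the comparison other than the test against a change of at least 1 log2 unit.

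Markers of other cell types moved with Amot between the sorts, where 4.53% of all probe sets were called (2.02% higher, 2.52% lower). Of 8 epithelial markers, 7 were lower in GFP+ than in GFP-, among them the keratin Krt18, at 7.06 against 8.67, and the splicing regulator Esrp1, at 2.96 against 4.30. The summed linear level of the epithelial list was 1060 to 1173 in the GFP- samples and 268 to 382 in the GFP+ samples. Of 8 visceral endoderm markers, 7 were also lower in GFP+, including Apob, an apolipoprotein, at 3.79 against 7.29 and Cubn, an endocytic receptor, at 2.90 against 3.97; their sum was 424 to 580 in GFP- and 143 to 158 in GFP+. Of 8 endothelial markers, 3 were lower in GFP+ and 0 higher, with sums of 171 to 232 in GFP+ and 284 to 363 in GFP-. Against D5, 7 of the visceral endoderm markers rose in GFP- (26% of all probe sets called) and 0 in GFP+ (31.2% called). In aorta 6 of the 8 endothelial markers were higher than in D13 GFP+ (37.2% of all probe sets called), with sums of 620 to 766. Of 5 leukocyte markers, 4 were also higher in aorta, with sums of 232 to 460 against 149 to 162 in D13 GFP+, so the aortic differences of all 10 genes stand beside markers of both kinds. The part of these cells in the Amot and aortic differences was not tested, and on a bulk array fewer cells of a type and less RNA per cell cannot be told apart. In D0 the leukocyte sum was 743 to 933 and the endothelial sum 378 to 442, so a high sum alone does not show such cells. From D0 to D5, where Amot rose, the 8 epithelial markers split: Krt8 and Krt18 rose and the other 6 fell (28.8% of all probe sets called). Krt8 had group means of 5.26, 8.30, 8.09, 6.46 and 4.87 from D0 to aorta, and Krt18 of 5.68, 8.66, 8.67, 7.06 and 4.98. The E-cadherin gene Cdh1 had 9.40, 4.86, 7.21, 4.45 and 3.94. The epithelial sum was 1701 to 1904 in D0, 831 to 944 in D5 and 118 to 155 in aorta.

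**Figure D2:**
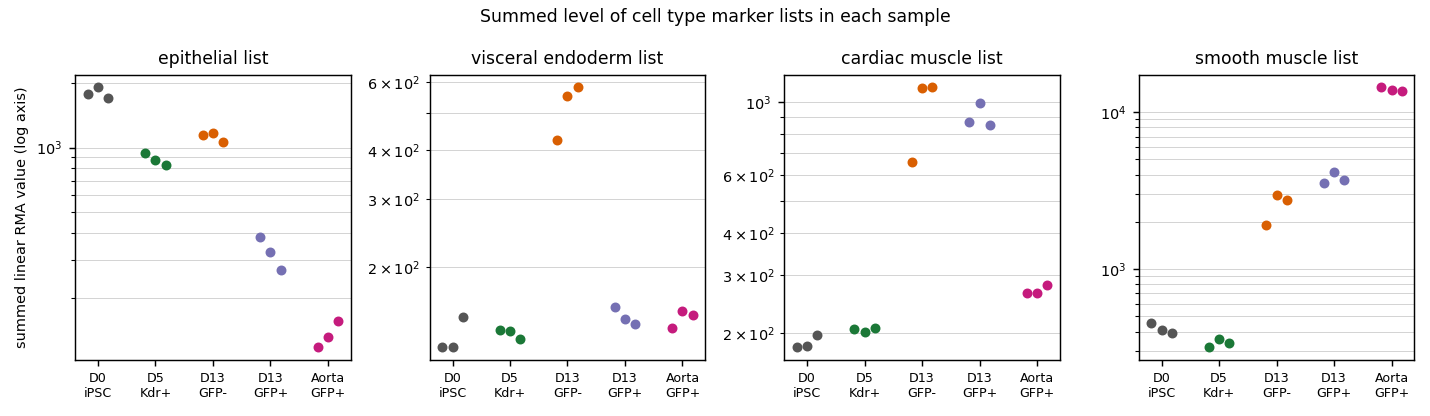
Summed linear RMA value (log axis) of 4 marker lists in each sample of the 5 groups. The epithelial and visceral endoderm lists are lower in each D13 GFP+ sample than in each D13 GFP- sample, the cardiac list is highest at day 13, and the smooth muscle list is highest in aorta.

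Amotl1 and Amotl2, the other two angiomotins, did not follow Amot. Amotl1 read 6.39, 6.15 and 6.16 in D0, 6.94, 7.11 and 7.05 in D5, and 7.27, 7.36 and 7.58 in D13 GFP-. It read 7.58, 7.79 and 7.81 in D13 GFP+ and 7.24, 7.48 and 7.45 in aorta. The D0 samples were the lowest, and the GFP+ values reached the highest level. Amotl1 rose by 0.80 ± 0.126 (SE) from D0 to D5 (limma adjusted p = 0.000126) and by 0.69 ± 0.126 from D5 to D13 GFP+ (limma adjusted p = 0.000377), where Amot fell. Its rise from D5 to D13 GFP-, 0.37, passed narrowly (limma adjusted p = 0.0423) and kept its call in 16 of 26 alternatives; leaving out D0 sample 5, any D5 sample, D13 GFP- sample 5 or 6, or D13 GFP+ sample 5 or 6 ended it, with an adjusted p of up to 0.194. The GFP+ minus GFP- difference of 0.33 did not pass (limma adjusted p = 0.197), although every GFP+ sample lay above every GFP- sample, the nearest being equal after rounding. Aorta was 0.34 lower than D13 GFP+ (limma adjusted p = 0.0451) and kept that call in 11 of 24 alternatives, with a difference of -0.03 after cyclic loess. Single samples whose absence ended it were D0 5 and 6, all 3 of D5, D13 GFP- 5, D13 GFP+ 5 and 6, and aorta 1 and 3 (adjusted p of up to 0.143).

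Amotl2 stayed within 0.67 log2 units over the group means. Its values ran from 6.73 to 6.96 in D0, from 6.96 to 7.18 in D5, from 7.29 to 7.67 in D13 GFP-, from 7.42 to 7.49 in D13 GFP+ and from 6.96 to 7.25 in aorta. Every day 13 sample lay above every D0, D5 and aortic sample. The D5 to D13 rises were 0.44 ± 0.129 in GFP- (limma adjusted p = 0.0173) and 0.41 ± 0.129 in GFP+ (limma adjusted p = 0.0223). The first was lost without D5 sample 5 or 6 or D13 GFP- sample 5 or 6 (adjusted p of up to 0.0941), and the second without D5 sample 5 or 6 or D13 GFP+ sample 6 (up to 0.0887). The drop of 0.39 from D13 GFP+ to aorta (limma adjusted p = 0.027) fell to 0.08 after cyclic loess and was lost without any 1 of the D13 GFP+ samples or without aorta 1 or 2 (up to 0.0852). The 0.22 between D5 and D0 (limma adjusted p = 0.239) and the -0.03 between the sorts (0.972) did not pass.

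Yap1 and Wwtr1 encode the paralogous coactivators YAP and TAZ, and they were highest at different stages. Yap1 read 7.94, 7.94 and 7.98 in D0, 8.71, 8.75 and 8.86 in D5, and 9.06, 8.58 and 8.63 in D13 GFP-. It read 8.42, 8.39 and 8.41 in D13 GFP+ and 8.01, 7.88 and 8.21 in aorta. All D5 and D13 samples stood above all D0 and aortic samples. Yap1 rose by 0.82 ± 0.132 (SE) from D0 to D5, 1.77-fold (limma adjusted p = 0.000163), and the 0.08 between aorta and D0 did not pass. From D5, the difference was -0.02 in GFP- (limma adjusted p = 0.96) and -0.36 in GFP+ (limma adjusted p = 0.0473). The second was past the threshold in 13 of 26 alternatives; leaving out any D0, D5 or D13 GFP+ sample, D13 GFP- 6 or aorta 1 ended it (adjusted p of up to 0.156), and it was -0.15 after cyclic loess. Yap1 in aorta was 0.38 below D13 GFP+ (limma adjusted p = 0.0347), which turned to 0.05 above after cyclic loess and was lost without any 1 D13 GFP+ sample or without aorta 1 or 2 (up to 0.123).

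Wwtr1 read 6.45, 6.67 and 6.60 in D0 and 6.42, 6.25 and 6.43 in D5. It read 7.46, 7.57 and 7.46 in D13 GFP-, 8.05, 7.83 and 7.71 in D13 GFP+, and 7.95, 7.91 and 7.95 in aorta. The early and late groups did not overlap, and aorta lay within the range of the GFP+ samples. Wwtr1 rose by 1.13 ± 0.116 (SE) from D5 to D13 GFP- (2.19-fold, limma adjusted p = 2.32e-06) and by 1.50 ± 0.116 to D13 GFP+ (2.82-fold, limma adjusted p = 6.64e-08). The order of the group means was aorta, D13 GFP+, D13 GFP-, D0 and D5. No neighbours except D13 GFP- and D0 differed past the threshold: aorta minus D13 GFP+ was 0.07 (limma adjusted p = 0.66), D13 GFP+ minus D13 GFP- was 0.36 (0.102) and D5 minus D0 was -0.21 (0.223). After cyclic loess these 3 did pass, at 0.39 (limma adjusted p = 0.0137), 0.45 (0.0301) and -0.36 (0.0224). Aorta was above D13 GFP- by 0.44 (limma adjusted p = 0.00643).

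The 4 TEAD factors, which share a DNA-binding domain, changed in different directions. Tead1 varied least: it ran from 7.58 to 7.79 in D0, 7.95 to 8.05 in D5, 7.69 to 8.13 in D13 GFP-, 8.06 to 8.27 in D13 GFP+ and 7.21 to 7.52 in aorta. All aortic samples lay below all others. Aorta was 0.79 ± 0.133 (SE) below D13 GFP+ (limma adjusted p = 0.000197; 0.42 below after cyclic loess, still called), and no other of the 5 comparisons passed for Tead1. The nearest was D5 minus D0, at 0.35 (limma adjusted p = 0.0616), which passed in 7 of 26 alternatives, among them without D13 GFP- 3 (0.0283).

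Tead2, a TEAD of early embryonic and neural tissue, read 7.56, 7.78 and 7.74 in D0 and 9.24, 9.37 and 9.31 in D5. It read 9.02, 8.67 and 8.64 in D13 GFP-, 8.38, 8.31 and 8.31 in D13 GFP+, and 5.00, 4.84 and 5.14 in aorta. No 2 groups overlapped. Tead2 rose 3.06-fold from D0 to D5, by 1.61 ± 0.126 (SE; limma adjusted p = 7.89e-08), and fell by 0.53 in GFP- (limma adjusted p = 0.00444) and by 0.97 in GFP+ (limma adjusted p = 1.48e-05). The aortic value was 10.1-fold below D13 GFP+, a difference of -3.34 ± 0.126 (limma adjusted p = 1.39e-11), and 6.49-fold below D0. Tead2 in GFP+ was 0.44 below GFP-, which did not pass (limma adjusted p = 0.0631). The difference passed with the replicate numbers of all cultured samples as a random block (limma adjusted p = 0.0447) and with array weights (0.015). With the numbers as a fixed block in the day 13 samples alone, which the data pair, Tead2 was not called.

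Tead3 rose to D5 as Tead2 did, but it was highest in aorta, where Tead2 was lowest. Tead3 read 4.02, 4.28 and 4.52 in D0, 5.13, 5.07 and 4.95 in D5, and 5.91, 5.76 and 5.82 in D13 GFP-. It read 5.94, 6.05 and 6.25 in D13 GFP+ and 7.09, 6.96 and 7.06 in aorta. In this order of groups, the samples of each stood above those of the one before, the 2 sorts only narrowly. Tead3 rose by 0.78 ± 0.133 (SE) from D0 to D5 (limma adjusted p = 0.000275), by 0.78 from D5 to GFP- (0.000304) and by 1.03 from D5 to GFP+ (1.42e-05), all limma adjusted p-values. Aorta was 0.96 ± 0.133 above D13 GFP+ (1.94-fold, limma adjusted p = 2.81e-05) and 6.79-fold above D0. Tead3 was the only one of the 10 genes higher in aorta than in D13 GFP+ without rescaling, and it kept that direction and call under median centring, quantile normalization and cyclic loess. The sorts differed by 0.25 (limma adjusted p = 0.435).

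Tead4, the TEAD needed for trophectoderm and active in early lineages, was highest in D5. It read 6.27, 5.99 and 5.70 in D0 and 7.32, 6.70 and 6.90 in D5. It read 4.95, 4.76 and 4.75 in D13 GFP-, 4.42, 4.66 and 4.90 in D13 GFP+, and 4.21, 4.15 and 3.95 in aorta. The D0 and D5 groups were separate from each other and from all later samples, and the sorts overlapped. Tead4 rose by 0.99 ± 0.18 (SE) at D5 (limma adjusted p = 0.000492), then fell 4.44-fold in GFP- (limma adjusted p = 2.98e-07) and 4.98-fold in GFP+ (limma adjusted p = 6.65e-08). Aorta was 0.56 below D13 GFP+ (limma adjusted p = 0.0231), a call lost without D13 GFP+ 5 or 6 or aorta 3 (adjusted p of up to 0.107). Of 7 trophoblast markers, 4 rose and 1 fell from D0 to D5 (28.8% of all probe sets called). Their summed linear level went from 189 to 228 in D0 to 1758 to 2065 in D5, mostly through Eomes and Hand1. The 4 were Eomes (4.63 to 9.88) and Hand1 (4.64 to 9.57), which mesoderm also expresses, Gata3 (4.24 to 6.67) and Cdx2 (by 0.68, to 4.68; limma adjusted p = 0.00994, but 0.0642 without D0 5 and 0.0603 without D5 6). Tfap2c fell, from 6.50 to 4.64, and Elf5, at 2.98 and 3.04, and Krt7, at 4.85 and 4.22, did not pass. The sums were 250 to 471 in D13 GFP-, 148 to 219 in D13 GFP+ and 112 to 126 in aorta. The part of trophoblast-type cells in the Tead4 level was not tested.

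Ankrd1, a stress-responsive ankyrin repeat protein of muscle, was high at day 13. It read 4.75, 4.70 and 4.14 in D0 and 4.64, 4.32 and 4.48 in D5. It read 9.38, 10.71 and 10.34 in D13 GFP-, 9.83, 10.09 and 9.41 in D13 GFP+, and 6.40, 6.16 and 5.89 in aorta. Day 13 samples stood above all others, the sorts overlapped, and aorta lay between the early groups and day 13. The rise from D5 was 5.66 ± 0.28 (SE), 50.7-fold, in GFP- (limma adjusted p = 1.21e-09) and 5.30 ± 0.28, 39.4-fold, in GFP+ (limma adjusted p = 1.33e-09). The D5 level may be background, so the folds are uncertain. The sorts differed by -0.37 (limma adjusted p = 0.67). In aorta Ankrd1 was 12.4-fold below D13 GFP+ (limma adjusted p = 4.7e-08) and 3.08-fold above D0 (limma adjusted p = 0.000137).

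Cardiac markers stood beside these values. Of 9 cardiac muscle markers, 4 rose from D5 in GFP- (26% of all probe sets called) and 3 in GFP+ (31.2% called), and 0 fell in either. Tnnt2 (cardiac troponin T), Tnni3 and Myl7 rose in both sorts, and Myh7 in GFP-. The Myl7 call was lost without D13 GFP- 6 in GFP- (limma adjusted p = 0.0534) and, in GFP+, without any 1 D5 sample or D13 GFP+ 5 or 6 (up to 0.162). The Myh7 call was lost without any 1 D5 sample or D13 GFP- 5 or 6 (up to 0.193). Tnnt2 averaged 5.97 in D5, 9.36 in GFP-, 9.43 in GFP+ and 5.81 in aorta, and Actn2, a sarcomere crosslinker, averaged 3.05, 3.42, 3.43 and 3.51. The cardiac sum, to which Tnnt2 contributes most, was 202 to 207 in D5, 656 to 1104 in GFP-, 852 to 990 in GFP+ and 264 to 280 in aorta. The samples numbered 3 stood apart in the myosin genes: in GFP- Myh6, Myh7 and Myl7 read 3.48, 2.89 and 4.04 in sample 3, against 5.17, 6.05 and 6.08 in sample 5 and 4.56, 5.49 and 6.25 in sample 6. In GFP+ they read 3.18, 2.92 and 3.11 in sample 3, against 4.73, 4.79 and 5.85 in sample 5 and 4.71, 4.11 and 5.92 in sample 6. Other cardiac markers did not stand apart in this way: Tnnt2 read 8.87 in GFP- 3 and 9.52 in GFP+ 3, and Tnni3 read 5.96 and 4.69. Ankrd1 in those samples numbered 3 was 9.38 and 9.83. All 3 genes were there above every D5 sample. The part of cardiac-type cells in the Ankrd1 values was not tested.

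**Figure D3:**
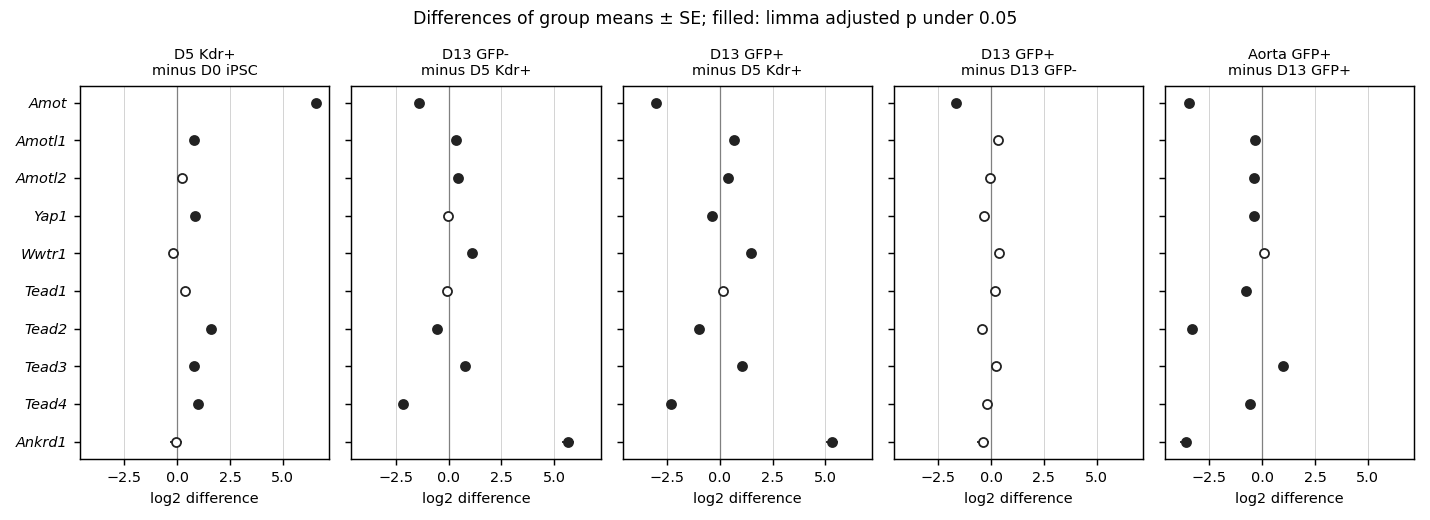
Log2 difference (horizontal axis, ± SE) of each of the 10 genes in each of the 5 comparisons; filled points have a limma adjusted p under 0.05. Amot is the only filled point between the day 13 sorts, and Tead3 the only one to the right of 0 in aorta against D13 GFP+.

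The other genes of the pathway were described from 5 lists. Of 19 YAP, TAZ and TEAD target genes, 5 rose and 10 fell from D0 to D5, with a median of -0.59, where 28.8% of all probe sets were called. From D5 to D13, 16 rose and 1 fell in GFP-, with a median of 1.87, and 15 rose and 1 fell in GFP+, with a median of 2.48, where 26% and 31.2% of all probe sets were called; these 2 comparisons share their D5 samples. Fibroblast markers moved with them: of 7, 4 rose and 1 fell in GFP- and 5 rose and 1 fell in GFP+, with medians of 2.42 and 3.56. Their summed linear level was 506 to 583 in D5, 964 to 2903 in GFP-, 2715 to 5060 in GFP+ and 2995 to 5023 in aorta. Of 8 smooth muscle markers, 6 rose in GFP- and 8 in GFP+, and 0 fell in either, with medians of 1.33 and 0.86. The part of either cell type in the target genes' rise was not tested. The matricellular genes Ccn1 and Ccn2 fell by 1.55 ± 0.154 and by 2.01 ± 0.208 (SE) to D5 (limma adjusted p = 1.18e-06 and 1.74e-06). Ccn1 then rose by 3.08 in GFP- and 3.19 in GFP+, and Ccn2 by 2.87 and 3.11. The receptor tyrosine kinase Axl rose by 3.36 and 3.57, 10.3-fold and 11.9-fold, and Ccdc80, a secreted matrix protein, by 3.01 and 3.49. The D5 values of Axl (4.56, 4.99 and 4.66) and Ccdc80 (3.89, 3.37 and 3.94) may be background, so the sizes of these rises are uncertain. Tgfb2, a TGF-beta ligand, rose at both steps: by 1.83 to D5, then by 2.90 in GFP- and 2.75 in GFP+. Rbms3, an RNA-binding protein, likewise rose by 1.90 and then by 2.79 and 3.30. All these D13 differences had limma adjusted p-values of 5.35e-07 or less.

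In aorta against D13 GFP+, 8 target genes were higher and 5 lower (37.2% of all probe sets called). Ccn1 averaged 10.93 in aorta against 10.05 (0.88 ± 0.154, SE; limma adjusted p = 0.000286), and Ccn2 10.16 against 8.47 (1.68 ± 0.208; limma adjusted p = 8.76e-06). Axl was 1.42 higher and Ccdc80 1.80 higher. These 4 were thus higher in aorta where Ankrd1 was lower. In aorta, Igfbp3, Fjx1, Nt5e, Ptpn14 and Nuak2 were the 5 lower genes.

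**Figure D4:**
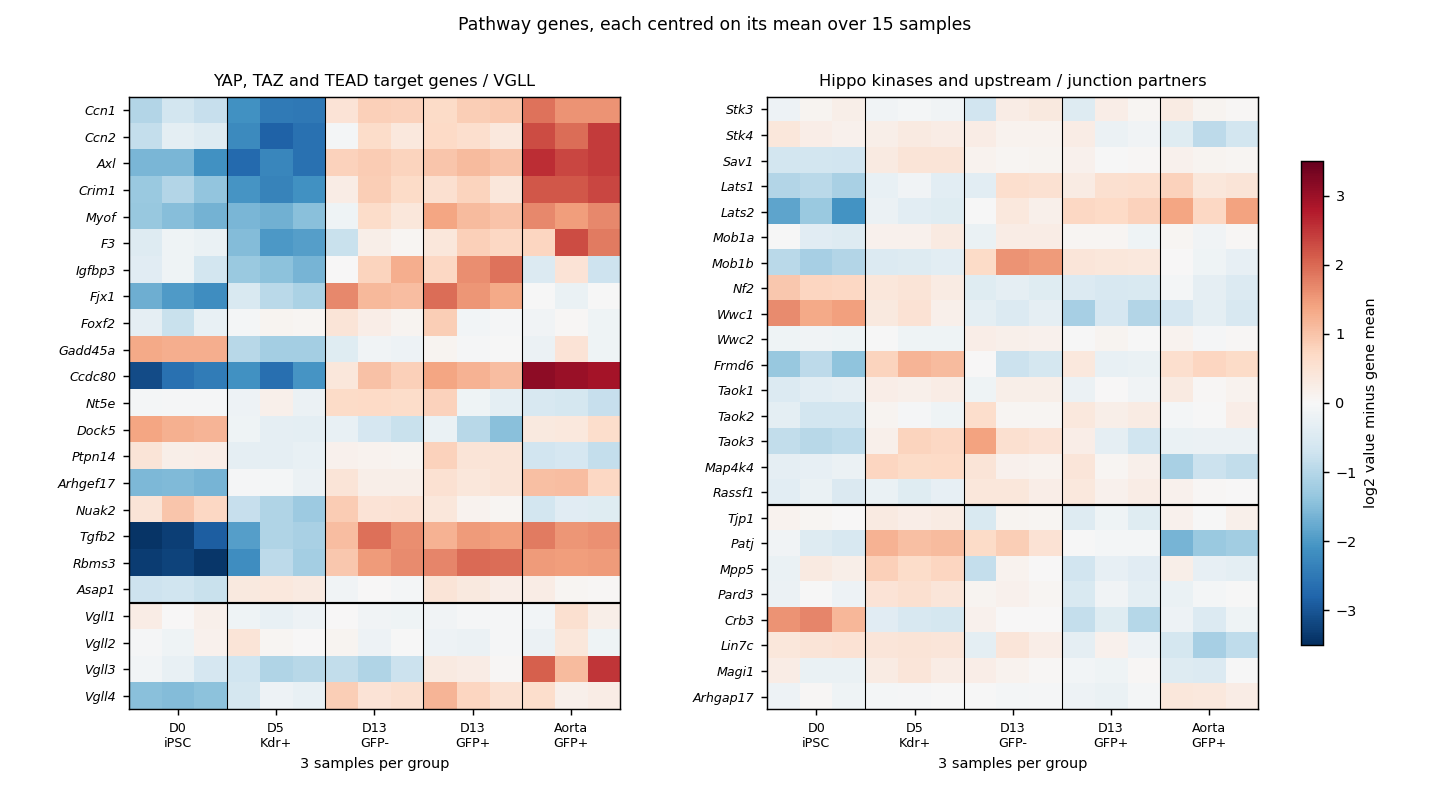
Log2 value of each pathway gene minus its mean over the 15 samples (colour), with 3 samples per group in columns. Left, the 19 target genes above the VGLL genes; right, 16 Hippo kinases and upstream genes above 8 of the 9 junction partners (Mpp5 is the older symbol of Pals1). Most target genes are blue in D5 and red at day 13, and Ccn1, Ccn2, Axl and Ccdc80 have their highest values (deepest red) in aorta.

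Of 16 Hippo kinases and upstream regulators, 10 rose and 2 fell from D0 to D5 (28.8% of all probe sets called). The kinase genes Lats2 and Lats1 rose by 1.40 ± 0.2 and 0.77 ± 0.21 (SE; limma adjusted p = 5.28e-05 and 0.0102), and Frmd6, a FERM-domain activator of the pathway, by 2.25 ± 0.21 (5.64e-07). Wwc1, which encodes the upstream protein KIBRA, fell by 1.13 ± 0.155 (3.56e-05), and the tumour suppressor Nf2 fell by 0.42 ± 0.12 (0.013; without D0 3 0.0593, without D5 6 0.06). From D5 to D13, 3 rose and 5 fell in GFP- (26% of all probe sets called), and 4 rose and 6 fell in GFP+ (31.2% called); after cyclic loess these were 4 and 3, and 6 and 4. Nf2 fell again by 0.77 in GFP- and by 0.91 in GFP+, Wwc1 by 0.72 and 1.27, and Frmd6 by 1.47 and 1.07. Mob1b, a LATS cofactor, rose by 1.68 in GFP- and by 0.83 in GFP+, and Lats2 rose by 1.08 in GFP+ (limma adjusted p = 0.000452). Lats1 rose by 0.72 in GFP+ (0.014), a call lost without D5 6, D13 GFP+ 5 or D13 GFP+ 6 (adjusted p of up to 0.0545). In aorta against D13 GFP+, 2 were higher and 3 lower, where 37.2% of all probe sets were called, but 6 and 1 after cyclic loess, 4 and 2 after quantile normalization and 1 and 3 after median centring. Frmd6 was 0.71 higher there (limma adjusted p = 0.0138; without D13 GFP+ 5 0.0649, without D13 GFP+ 6 0.0605).

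Vgll3 and Vgll4 encode cofactors that bind TEAD factors, and Vgll4 is known to compete with YAP for them. Vgll4 rose by 1.12 ± 0.179 (SE) at D5 (limma adjusted p = 0.000161) and again by 0.99 in GFP- and 1.18 in GFP+. Vgll3 averaged 4.46 in D5, 4.48 in GFP-, 5.59 in GFP+ and 7.27 in aorta. It was 1.68 ± 0.254 higher in aorta than in D13 GFP+ (limma adjusted p = 6.89e-05), and in GFP+ 1.12 ± 0.254 above D5 (limma adjusted p = 0.00251). In aorta against D13 GFP+ (37.2% of all probe sets called), Vgll4 was called lower, at 6.93, 6.50 and 6.56 against 7.50, 7.07 and 6.84. With 1 sample left out, 1 to 3 of the 4 VGLL genes were called in that comparison. Vgll3 kept its call in all 15 such fits. In only 4 of the 15 was another VGLL gene called as well, so the Vgll4 call was mostly lost. Vgll1 and Vgll2 passed in 0 of the 5 comparisons.

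Junction and polarity partners of the angiomotins moved both ways. Of 9, 3 rose and 2 fell at D5 (28.8% of all probe sets called): Patj, a PDZ scaffold that binds angiomotins, rose by 1.50 ± 0.144 (SE), and the polarity protein Crb3 fell by 2.00 ± 0.164. Their limma adjusted p-values were 8.12e-07 and 1.34e-07. Patj had group means of 4.65, 6.15, 5.71, 4.98 and 3.64 from D0 to aorta, and so was highest in D5 as Amot was. It fell by 1.17 from D5 to D13 GFP+ and by 1.34 from D13 GFP+ to aorta. From D5, 2 of the 9 rose and 3 fell in GFP- (1 and 4 after median centring; 26% of all probe sets called), and 1 rose and 5 fell in GFP+ (31.2% called). In aorta against D13 GFP+, 3 were higher and 3 lower (37.2% of all probe sets called), against 1 and 3 after median centring, 4 and 2 after quantile normalization and 4 and 1 after cyclic loess. Lin7c, a polarity scaffold, was 0.77 lower in aorta (limma adjusted p = 0.00379), and this was 0.34 and not called after cyclic loess.

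Of 8 genes of angiomotin turnover, 2 rose and 1 fell at D5 (1 and 1 after quantile normalization or cyclic loess), where 28.8% of all probe sets were called. The tankyrases Tnks and Tnks2 mark angiomotins for degradation. Tnks rose by 1.49 ± 0.12 (SE) at D5 (limma adjusted p = 1.2e-07), while the ubiquitin ligase Nedd4l fell by 2.06 ± 0.141 (limma adjusted p = 1.86e-08). In aorta against D13 GFP+, 1 was higher and 4 lower (1 and 2 after cyclic loess; 37.2% of all probe sets called). Tnks was 1.42 ± 0.12 and Tnks2 1.47 ± 0.126 lower there (limma adjusted p = 1.39e-07 and 1.62e-07). Itch, another ubiquitin ligase, was 0.56 lower (limma adjusted p = 0.0427), but this call was lost without D0 5, any D5 sample, any D13 GFP+ sample or aorta 2 (adjusted p of up to 0.187). In GFP- 0 rose and 1 fell from D5 (26% called), and in GFP+ 1 rose and 2 fell (31.2% called); after cyclic loess these were 1 and 0, and 3 and 0. In GFP+ the split was 0 and 2 after median centring and 1 and 0 after quantile normalization.

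Between the day 13 sorts, 4.53% of all probe sets were called, and of the pathway lists 3 of 19 target genes, 2 of 16 kinases and upstream regulators, 1 of 4 VGLL genes, 2 of 9 junction partners and 1 of 8 turnover genes. These counts come from the fit on all 15 samples, which does not pair the 2 sorts. Of the target genes, 3 were higher in GFP+ and 0 lower: Myof by 0.86 ± 0.176 (SE; limma adjusted p = 0.00978), Ptpn14 by 0.45 (0.0494) and Asap1 by 0.40 (0.0431). Without both samples numbered 3, 0 were higher and 1 lower, and Myof was 0.53 (limma adjusted p = 0.0803). Ptpn14 and Asap1 each kept their call in 11 of 27 alternatives; without any 1 day 13 or D5 sample neither passed, with an adjusted p of up to 0.186 and 0.145. Leaving out D0 5, D0 6 or aorta 1 also ended the Ptpn14 call, and any D0 sample the Asap1 call. With the block in the day 13 samples alone they had adjusted p-values of 0.0604 and 0.0795. Ccn1 and Ccn2 differed by 0.11 and 0.23 and did not pass (limma adjusted p = 0.878 and 0.741). In GFP+, Mob1b was 0.85 lower (limma adjusted p = 0.014; up to 0.0755 without GFP- 5, GFP- 6 or GFP+ 6) and the kinase gene Taok3 1.08 lower (0.0205; up to 0.114 without GFP- 3, GFP+ 5 or GFP+ 6). Vgll3 was 1.10 higher in GFP+ (limma adjusted p = 0.0198; up to 0.0817 without GFP- 5, GFP+ 3 or GFP+ 5, and 0.111 without both samples numbered 3). Patj was 0.73 ± 0.144 lower in GFP+ (limma adjusted p = 0.00781), and this held under every sample left out. Crb3 was 0.81 lower (0.00924; 0.0566 without GFP+ 6, and 0.077 without both samples numbered 3), and Tnks was 0.55 lower (0.0139; up to 0.0727 without GFP- 5, GFP- 6, GFP+ 5 or GFP+ 6).

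For the 7 genes whose group means spanned at least 1 log2 unit, the 3 named probe sets with the most similar pattern were taken by Pearson correlation over the 15 samples; the samples share their 5 groups, so these values describe shape only. Amot was followed most closely by Fmnl2, a formin (r = 0.991), Pcbp4 (0.982) and the Wnt antagonist Dkk1 (0.982), whose group means were 4.10, 8.69, 7.41, 6.26 and 4.75 from D0 to aorta. Tead2 was followed by Igf2bp3, a fetal RNA-binding protein (0.994), Pip4k2b (0.986) and the zinc transporter Slc39a10 (0.986). Wwtr1 was followed by Serpine2 (0.986), Loxl1, a lysyl oxidase (0.983), and Ankrd44 (0.982). Tead3 was followed by Antxr2, Cyp1b1 and the calcium channel subunit Cacna1c, all at 0.982. Ankrd1 was followed by the ephrin receptor Epha7 (0.983), Txndc5 (0.971) and Aldh1l2 (0.969). Amotl1 was followed by Pcdhga10 (0.982), Daam2 (0.980) and Slc22a15 (0.980), and Tead4 by Neto2 (0.980), Nubp1 (0.977) and Smpd4 (0.976). By Spearman's coefficient these 21 genes ranked between 1st (Slc22a15) and 413th (Nubp1) for their gene, so the choice of neighbours depends on the measure. Among the 10 genes themselves, Amot and Yap1 correlated at 0.94 over the 15 samples, and Wwtr1 and Tead4 at -0.95.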

How the data were processed

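Total RNA of 15 samples was hybridised to 1 array each. The authors deposited log2 values. Per the submitters' processing notes these are RMA values computed in R 2.15.1 using affy 1.36.1; the files' range fits that scale, and no source used here names a genome build. Probe sets were named by Entrez Gene ID through RefSeq (23740 of 25206), and 25.6% held a tied value. No further filter was used. All samples were fitted together in limma 3.58.1 (R 4.3.3) with a mean per group, 10 residual and 5.09 prior degrees of freedom, and Benjamini-Hochberg adjustment within each comparison at 0.05; the fit was tested on simulated data. The labels call the triplicates biological but do not name cultures or animals, so p-values rest on the spread between these samples. That spread is pooled over all groups, so samples outside a comparison can change its calls. Array batches were not examined.

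The same numbers recur in the cultured groups (3, 5 and 6). Deviations of equal-numbered samples correlated at 0.397 to 0.597 between the 2 day 13 sorts, which the data thus pair, and at -0.091 to 0.079 between other stages. The 10 genes and all lists were chosen with earlier results of these data known. Named were all 10 genes, up to 4 genes per list with the largest range of group means among those called, Ccn1, Ccn2, Lats1, Lats2 and Nf2, the highest and lowest marker where a cell type list is given, and the sort genes; the trophoblast markers, Krt8, Cdh1, Tnni3, the cardiac myosin genes, Myh11 and the genes making up small counts were added after their values were seen. Alternatives were: only the 2 groups compared, array weights, a mean-variance trend, robust moderation, a test against a change of 1 log2 unit, median centring, quantile normalization, cyclic loess, probe sets above the median level, replicate blocks, each sample left out, and, added after seeing the data, both day 13 samples numbered 3 left out. The values of 1 junction gene are not reported here.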

Additional observations from a re-analysis of the deposited data

How the results depend on the processing

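No detection call was used for levels near the sample medians, and 3 samples per group limit all calls. Of the differences under all alternatives, 4206 values kept their call, 239 lost it, 35 gained it and 28 changed sign; except for Yap1 in aorta against D13 GFP+, those that changed sign were not called. Rescaling moved the median of all probe sets by up to 0.151 log2 units. The cause of these changes was not tested, except where fewer samples or a stricter test was the alternative.

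Tested against a change of 1 log2 unit, 1200, 829, 1589, 31 and 1716 probe sets passed in the 5 comparisons in the order given, with 2, 2, 4, 0 and 3 of the 10 genes, and 2124 with 3 for aorta minus D13 GFP-. Array weights gave 10102 from D5 to D13 GFP-, and 2945 with 3 of the 10 genes between the sorts; using only the 2 sorts gave 459. Between the sorts 2 of the 10 genes passed after cyclic loess, among probe sets above the median level, and with a random replicate block. The fixed replicate block in the day 13 samples alone gave 2130, and over the cultured samples 1462 (1421 as a random block); with the fixed block in the day 13 samples alone, Amot remained the only one of the 10 genes called. Without both day 13 samples numbered 3, chosen after seeing the data, 934 passed there and Amot was -1.60 (limma adjusted p = 0.00196).

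Leaving out 1 sample gave 6143 to 7822 probe sets from D0 to D5, 5531 to 6742 from D5 to D13 GFP-, 6895 to 8350 from D5 to D13 GFP+, 653 (without D13 GFP+ 6; 729 without D13 GFP- 5) to 1242 between the sorts, and 7897 to 9972 in aorta against D13 GFP+. The 10 genes counted 6 to 7, 6 to 8, 7 to 9, 1 to 1, and 5 (without D13 GFP+ 5 or 6) to 9.

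Changes of sign were as follows. Ankrd1 from D0 to D5 was 0.04 after median centring, 0.05 after quantile normalization and -0.24 to 0.06 with a sample left out. Tead1 from D5 to D13 GFP- was 0.07 with array weights, 0.05 after quantile normalization, 0.07 after cyclic loess, 0.09 without both samples numbered 3, and -0.13 to 0.09 with a sample left out. Yap1 there was 0.07 after quantile normalization, 0.09 after cyclic loess and -0.17 to 0.07 with a sample left out. Between the sorts Amotl2 was 0.05 after cyclic loess and -0.13 to 0.06 with a sample left out, and Ccn1 -0.005 to 0.18. Without both samples numbered 3, Tead1 was -0.0022, Tead4 0.02 and Ccn2 -0.04. In aorta against D13 GFP+, Yap1 was 0.05 after cyclic loess, and Wwtr1 -0.0041 to 0.17 with a sample left out. Amot in aorta against D0 was -0.01 after median centring and after quantile normalization, and -0.13 to 0.33 with a sample left out.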
